A study of Mus musculus with 12 samples.

Results

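The bone morphogenetic protein (BMP) ligands Bmp2, Bmp4, Bmp5, Bmp6 and Bmp7 and the secreted proteins Grem1, Nog, Chrd, Fst and Bmper, which bind them outside the cell, were examined for the histone marks H3K27ac and H3K27me3 in young and old mesenchymal stem cells (MSCs). The 10 genes were chosen by name from 21897 protein-coding genes, and every deposited region that overlapped a gene body or the 50 kb on either side of it was taken as belonging to that gene. This gave 32 of 31617 H3K27ac regions and 44 of 28047 H3K27me3 regions. MSCs are multipotent stromal cells that form bone, fat and cartilage cells. The marks were measured by CUT&RUN, in which an antibody tethers a nuclease to a chromatin mark and the released DNA is sequenced. The young group came from mice aged 3 to 5 months and the old group from mice aged 18 to 22 months, all cultured at 2% O2, with no genetic change or agent named for either group. Each age and mark had 3 libraries (n = 3 throughout), so the study held 12. The labels do not say whether the 3 samples of a group came from separate animals or cultures, so the p-values measure only the spread between these samples, which may be technical.

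BMP ligands are secreted dimers of the TGF-β superfamily. They bind receptor serine/threonine kinases, which phosphorylate SMAD proteins that then act on targets such as the Id genes. Gremlin 1, noggin, chordin and follistatin bind ligands and keep them from their receptors, while BMPER can restrain or promote signalling depending on context. In MSCs and bone, BMP signalling is best known for driving osteogenic and chondrogenic differentiation. H3K27ac marks active promoters and enhancers. H3K27me3 is laid down by Polycomb repressive complex 2 over silent developmental genes, often in long domains and often over CpG-rich promoters.

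The H3K27ac libraries held 2750953 to 5541429 mapped reads, of which 33.4% to 41.4% lay in regions, and the H3K27me3 libraries held 3622108 to 9947515 mapped reads, of which 53.8% to 66.6% lay in regions. Old replicate 2 was the shallowest library of both marks. Of the stromal markers, 9 of 9, among them Pdgfra, Ly6a, Prrx1 and Thy1, carried H3K27ac over the transcription start site (TSS), against 1 of 5 blood and macrophage markers (Cd68) and 0 of 3 endothelial markers. Of the 9 stromal markers, 2 (Lepr and Nt5e) also carried H3K27me3 over the TSS. Before scaling, the median region was lower in old cells by a log2 change of -0.12 for H3K27ac and -0.13 for H3K27me3. The values below were scaled to remove that shift and are therefore changes relative to the typical region. Scaled signal is the deposited value after this step, and it is proportional to the reads of a region and not divided by the length of the region.

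The 10 TSSs did not carry the same marks. H3K27me3 alone covered the TSS of Bmp2, Bmp4, Bmp6, Bmp7 and Nog. Both marks were called over the TSS of Bmp5, Grem1, Chrd and Bmper, and H3K27ac alone over that of Fst. Over all protein-coding genes, 25.3% had H3K27me3 alone at the TSS, 3.16% both marks, 46.9% H3K27ac alone and 24.7% neither. In bulk cells, both marks over 1 TSS cannot be told apart from a mixture of cells or alleles that carry 1 mark each. Likewise, fewer cells with a mark and less of the mark in each cell cannot be told apart in any value given here.

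**Figure D1:**
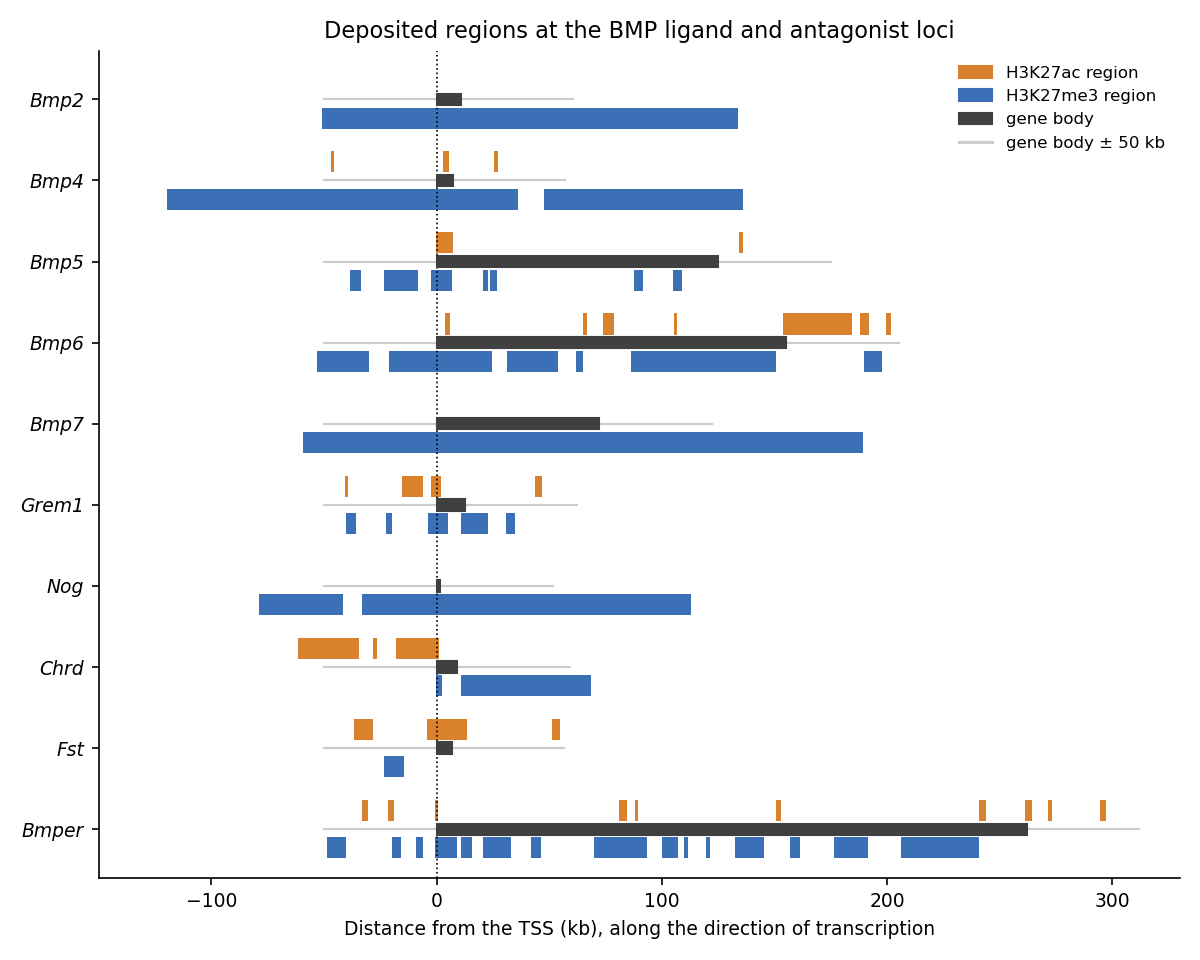
Deposited regions at the 10 loci, drawn to scale by distance from the TSS in kb along the direction of transcription. Orange bars above each line are H3K27ac regions, blue bars below it are H3K27me3 regions, black boxes are gene bodies and grey lines the gene body and 50 kb on each side. Bmp2, Bmp7 and Nog lie in long H3K27me3 domains with no H3K27ac region, while Bmper holds 10 H3K27ac and 17 H3K27me3 regions.

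The sequence at the TSS also differed between the members. Promoters of 6 of the 10 members were found in a RefSeq table of 300 bases a gene (GRCm38.p6). These were Bmp4, Bmp5, Bmp6, Grem1, Chrd and Bmper. The RefSeq start of Bmp6 lay 609 bases past the GENCODE start used for the marks, so its 300 bases lay inside the gene. The starts of the others matched within 2 bases. The 250 bases before the RefSeq start are shown for 1 promoter under H3K27me3 alone (Bmp4, chr14:46390670-46390919, minus strand) and 3 under both marks, of which 1 is poor in CpG (Bmp5, chr9:75775115-75775364, plus strand) and 2 are rich in it (Grem1, chr2:113758649-113758898, minus strand, and Chrd, chr16:20732877-20733126, plus strand). In Chrd the H3K27me3 region began at 20733001, inside the printed stretch, so only the bases from there on lie under both marks. Each is written 5′ to 3′ on the strand of the gene, with CpG dinucleotides in capitals.
Bmp4: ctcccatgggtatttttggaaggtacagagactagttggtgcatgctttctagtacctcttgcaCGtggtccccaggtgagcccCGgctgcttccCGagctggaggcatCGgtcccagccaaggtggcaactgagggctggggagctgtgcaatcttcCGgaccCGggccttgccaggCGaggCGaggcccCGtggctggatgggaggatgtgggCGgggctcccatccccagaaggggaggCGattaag
Bmp5: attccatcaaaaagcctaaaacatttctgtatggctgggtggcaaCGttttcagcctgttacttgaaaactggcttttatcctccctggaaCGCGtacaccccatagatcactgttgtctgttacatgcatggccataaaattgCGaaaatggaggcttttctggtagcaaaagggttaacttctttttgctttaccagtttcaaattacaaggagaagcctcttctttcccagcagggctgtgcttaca
Grem1: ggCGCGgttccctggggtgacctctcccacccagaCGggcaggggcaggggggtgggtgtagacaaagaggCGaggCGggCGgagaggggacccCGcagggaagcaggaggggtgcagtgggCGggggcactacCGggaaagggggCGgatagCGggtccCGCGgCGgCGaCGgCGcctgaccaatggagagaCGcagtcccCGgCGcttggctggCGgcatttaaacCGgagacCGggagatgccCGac
Chrd: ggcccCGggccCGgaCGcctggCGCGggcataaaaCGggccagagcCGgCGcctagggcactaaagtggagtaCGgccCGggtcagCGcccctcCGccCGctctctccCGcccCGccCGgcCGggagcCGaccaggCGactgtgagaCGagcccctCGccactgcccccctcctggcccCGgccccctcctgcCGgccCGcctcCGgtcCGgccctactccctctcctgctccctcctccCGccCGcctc
In the 300 bases, Bmp5 held 4 CpG dinucleotides and Bmp4 12, against 27 in Bmp6, 28 in Grem1, 31 in Bmper and 34 in Chrd. The median of 32851 promoters in the table was 7. Bmp5 was thus the only one of the 6 below that median, although its TSS carried both marks like those of Grem1, Chrd and Bmper. The letters GGCGCC, a GC-rich element that SMAD proteins of the BMP branch can bind and that reads the same on both strands, were found in Grem1 and Chrd and in 11.9% of all promoters. The match describes the letters in this window and not a bound site.

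The question of the comparison was whether age alters the marks at these loci. A region was called when its adjusted p was under 0.05 in limma over all regions of the mark. For H3K27ac, 0 of the 32 regions were called by limma, with 2 at an unadjusted p under 0.05 (6.25%, against 9.6% of all regions). By edgeR 1 was called and by DESeq2 0, but DESeq2 gave no adjusted p for the region that edgeR called. The deposited tables listed 2 of the member regions, 1 of H3K27ac at Bmp5 and 1 of H3K27me3 at Bmper, for young cells alone. They entered the tables through the group where they were high, so a lower value in old cells was partly fixed by that listing, and both are among the regions counted here. The background over all 31617 H3K27ac regions was 0.0822% called by limma, with 96 called by edgeR and 6 by DESeq2. In 2 of the 32 regions the old and young libraries did not overlap, against 14.5% of all regions. The median log2 change was -0.05 (all regions 0.00, and 0.045 for the members without old replicate 2), with 14 regions higher and 18 lower in old cells, a split that became 11 and 21 on the values as deposited. Of all H3K27ac regions, 50.4% were lower in old cells, and on the values as deposited 10427 of 31617 were higher. For H3K27me3, 1 of the 44 regions was called, against 0.488% of all regions in either direction and 0.406% called lower in old cells. At an unadjusted p under 0.05 there were 13 (29.5%, against 13.9% of all regions), and 9 did not overlap between ages, against 19.1% of all regions. The median log2 change was -0.08 (all regions -0.01), with 19 higher and 25 lower, or 13 and 31 on the values as deposited. Of all H3K27me3 regions, 51.4% were lower in old cells, and on the values as deposited 8170 of 28047 were higher. Regions of 1 gene neighbour each other and are not independent.

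**Figure D2:**
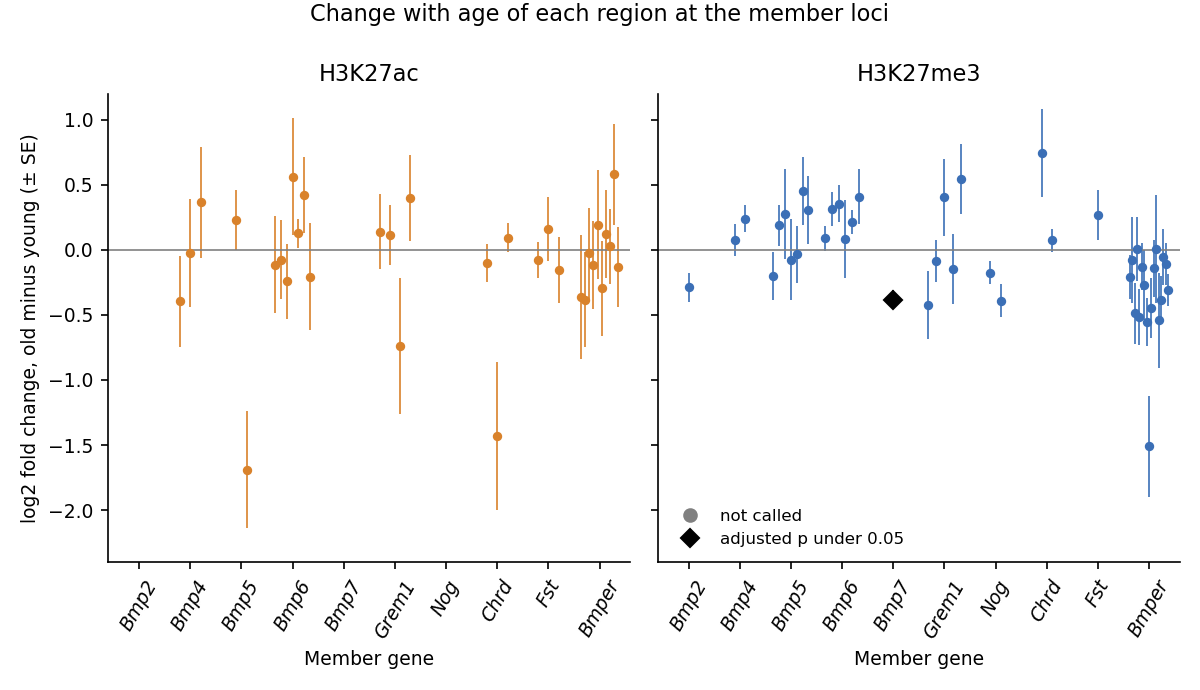
Log2 fold change, old minus young, of each region (point) with its standard error (bar), by gene and mark, ordered by distance from the TSS within a gene. The black diamond, the H3K27me3 domain of Bmp7 at -0.38, is the called region. The widest bars belong to short regions with few reads.

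The called region was the H3K27me3 domain of Bmp7, whose product is a ligand best known for kidney, eye and skeletal development. It spanned 248.5 kb (chr2:172751001-172999500, GRCm38), covered the whole gene and its flanks, and also held the TSS of Spo11, which encodes the enzyme that breaks DNA in meiosis. The scaled H3K27me3 signal was 727, 759 and 747 in young replicates 1 to 3 and 610, 545 and 560 in old replicates 1 to 3. Every old library lay below every young one, and the gap between the groups was wider than the spread within either. The signal fell by 0.38 on the log2 scale (SE 0.07, adjusted p = 0.0259, limma), which is 23.3% lower in old cells. Each library had 959 to 3772 reads in the domain, so counting error was small beside the difference. In length it ranked 64th of all H3K27me3 regions. The 901 H3K27me3 domains of 100 kb or more had a median log2 change of -0.09 and 76.4% of them were lower in old cells, yet only 10 had a lower log2 change than that of Bmp7 and 5 were called. The call was lost without young replicate 1, 2 or 3 (adjusted p = 0.170, 0.166 and 0.2 in turn, limma), where the log2 change was -0.37 to -0.40, and without variance trend and robust moderation (0.264). It was kept without any one of the old libraries. Over all H3K27me3 regions, limma called 137 with every library. That number was 12, 17 and 10 without young replicates 1, 2 and 3, and 35 without trend and robust moderation. It was 181, 313 and 180 without old replicates 1, 2 and 3. No H3K27ac region lay in the Bmp7 window.

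Bmp2, a ligand that strongly induces bone formation, lay in a similar H3K27me3 domain of 184.5 kb (chr2:133501501-133686000) with no H3K27ac region in its window. The scaled signal was 391, 381 and 342 in the young libraries and 352, 239 and 331 in the old ones. The groups overlapped, since old replicate 1 lay above young replicate 3, and the shallow old replicate 2 was the lowest. The log2 change was -0.29 (SE 0.11, adjusted p = 0.249, limma) and moved to -0.12 without old replicate 2.

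Bmp4, a ligand of early mesoderm and bone, had 2 H3K27me3 domains in its window. The domain over its TSS ran for 156 kb (chr14:46354501-46510500) and its scaled signal was 304, 335 and 431 in young and 338, 448 and 338 in old libraries. These groups overlapped throughout, with a log2 change of 0.07 (SE 0.12), which was -0.05 on the values as deposited. The second domain, 47.7 kb downstream of the TSS, had a log2 change of 0.24 (adjusted p = 0.317, limma). Only 10.7% of it lay inside the window, but it was counted whole in the window sum. The 3 H3K27ac regions of Bmp4, of 1.5 to 3.0 kb, all lay inside H3K27me3 domains and held 3 to 21 reads a library. The nearest to the TSS, 2.67 kb downstream, had a log2 change of -0.40 (SE 0.35), and the other two of -0.03 (SE 0.41) and 0.37 (SE 0.43), all between overlapping groups.

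Bmp6, a ligand linked to iron balance as well as bone, had 6 H3K27me3 regions and 7 H3K27ac regions over a long gene. The scaled H3K27me3 signal summed over its window was 270, 281 and 267 in young and 305, 337 and 296 in old libraries. All old libraries lay above all young ones, but the window was not called (log2 change 0.19, SE 0.08, adjusted p = 0.268, limma). The log2 change was above 0 in 6 of the 6 regions, and in 4 of 6 on the values as deposited. In 3 of the 6, of 22.5 to 64.5 kb, every old library lay above every young one, against 8.56% of all H3K27me3 regions. The domain over the TSS (45.5 kb) had a log2 change of 0.09, and the largest of the others, 64.5 kb within the gene body, was at 0.21 (adjusted p = 0.297, limma). The longest H3K27ac region, 30.5 kb at the 3′ end (chr13:38499001-38529500), began just before the gene ended at 38500302. It also covered the TSS of the neighbour Txndc5, an endoplasmic reticulum protein gene. The scaled H3K27ac signal of the region was 70.2, 61.2 and 76.0 in young and 78.1, 74.7 and 72.9 in old libraries, which overlapped (log2 change 0.13, SE 0.11). In young cells its mean was 69.1 of the 104 summed over the window, so that sum cannot be assigned to Bmp6 alone. The H3K27ac region nearest the TSS, 3.89 kb downstream, was at -0.11 (SE 0.37), and that of lowest p, 188 kb downstream, at 0.42 (SE 0.29, adjusted p = 0.689, limma), also with overlap.

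Bmp5, a ligand of skeletal and ear cartilage, carried both marks over its TSS. There the H3K27ac region of 7.5 kb had a log2 change of 0.23 (SE 0.23) and the H3K27me3 region of 9 kb a log2 change of -0.20 (SE 0.18), and in both the groups overlapped. The other 6 H3K27me3 regions of Bmp5, of 2 to 15 kb, had log2 changes between -0.08 and 0.45 and all overlapped between ages. A second H3K27ac region of 2 kb lay 134 kb downstream of the TSS, past the end of the gene (chr9:75909501-75911500), and it was the H3K27ac region listed for young cells alone. Its scaled H3K27ac signal was 8.17, 4.04 and 5.92 in young and 2.39, 0.786 and 1.53 in old libraries. All old libraries lay below all young ones. Its log2 change was -1.69 (SE 0.45), the libraries held 1 to 25 reads there, and limma did not call it (adjusted p = 0.138). The call by edgeR (adjusted p = 0.0457) carries the limit of that listing. Over all alternatives that gave a value, its adjusted p ran from 0.0457 to 0.768, the highest being without young replicate 1.

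**Figure D3:**
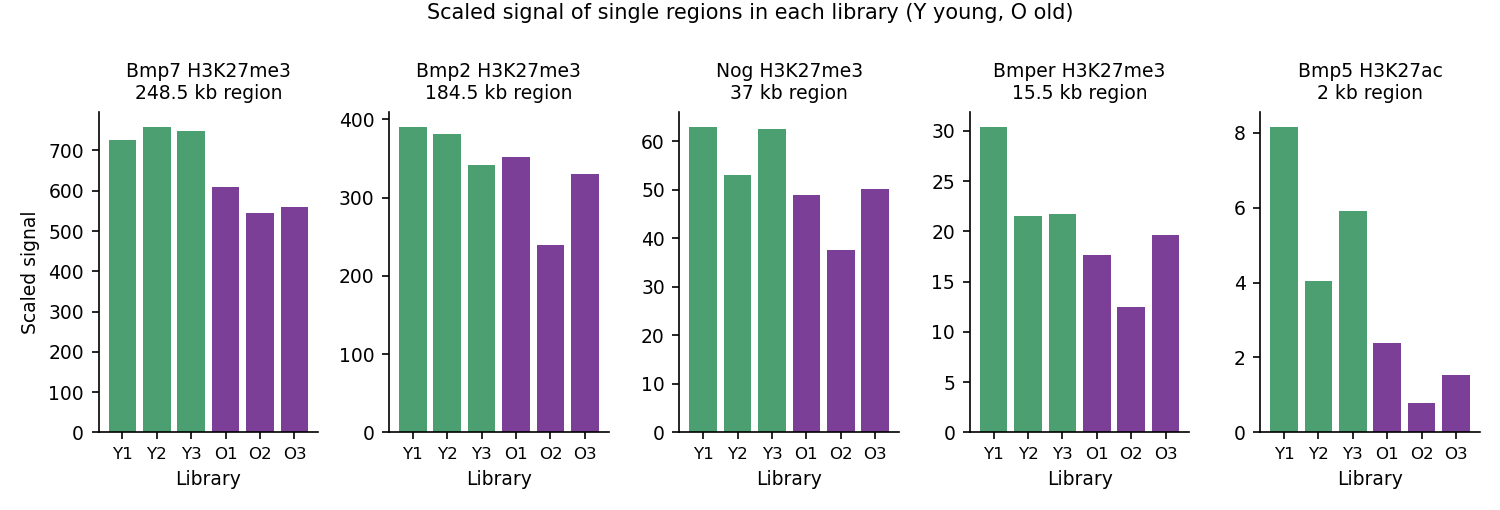
Scaled signal of single regions by library, with the axis of each panel starting at 0. Green bars are young libraries (Y1 to Y3) and purple bars old libraries (O1 to O3). In the Bmp7 domain the old libraries sit at 545 to 610, below the young ones at 727 to 759. The bars of Bmp2 overlap between ages.

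Among the antagonists, Nog, which encodes noggin, a high-affinity inhibitor of several BMP ligands, resembled Bmp2 and Bmp7 in having H3K27me3 and no H3K27ac region. The domain over its TSS (146 kb, chr11:89189501-89335500) had a scaled H3K27me3 signal of 323, 335 and 360 in young and 337, 271 and 296 in old libraries. The groups overlapped (log2 change -0.17, SE 0.09, adjusted p = 0.383, limma). A second domain of 37 kb, 41.7 kb upstream of the TSS, had 63.0, 53.1 and 62.5 in young and 48.9, 37.5 and 50.1 in old libraries. Here every old library lay below every young one, without a call (log2 change -0.39, SE 0.13, adjusted p = 0.145, limma). On the values as deposited it was called (0.0333).

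Bmper, an extracellular regulator that binds BMP ligands and acts in vessels and cartilage, had the most regions. The log2 change of H3K27me3 was below 0 in 15 of its 17 regions, and in all 17 on the values as deposited. Summed over the window, the scaled signal was 253, 207 and 214 in young and 183, 159 and 202 in old libraries. All old libraries lay below the young ones, by a narrow margin between young replicate 2 and old replicate 3. The log2 change of the window was -0.31 (SE 0.10, adjusted p = 0.193, limma), and the window was called without old replicate 3 (0.0177) and on the values as deposited (0.0211). Of its regions, 5 had an unadjusted p under 0.05. Those of lowest p adjoined each other in the gene body. A region of 15.5 kb (chr9:23293001-23308500) had a scaled H3K27me3 signal of 30.4, 21.5 and 21.7 in young and 17.7, 12.5 and 19.7 in old libraries (log2 change -0.56, SE 0.18, adjusted p = 0.155, limma). It was followed without a gap by a region of 2 kb (chr9:23308501-23310500) that the table listed for young cells alone, with 36 reads over the young and 5 over the old libraries. Its log2 change was -1.51 (SE 0.39, adjusted p = 0.0801, limma, and 0.0485 by edgeR), a difference in the direction that its listing favours. The H3K27ac regions of Bmper, 10 of 1.0 to 3.5 kb, had 4 log2 changes above 0 and 6 below, between -0.38 and 0.58, and all overlapped between ages. The one over the TSS was at -0.36 (SE 0.47), and that of lowest p, 271 kb downstream, at 0.58 (SE 0.39, adjusted p = 0.676, limma). The H3K27me3 region over the TSS (9.5 kb) was at -0.21 (SE 0.17), with overlap.

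Grem1, which encodes gremlin 1, an antagonist of Bmp2 and Bmp4, carried both marks over its TSS. The H3K27ac region of 4.5 kb there had a scaled signal of 8.49, 6.35 and 6.58 in young and 9.57, 7.08 and 7.13 in old libraries (log2 change 0.14, SE 0.29). The H3K27me3 region of 9 kb had 15.6, 14.3 and 16.5 in young and 13.5, 6.26 and 17.1 in old libraries (log2 change -0.42, SE 0.26, adjusted p = 0.493, limma). In both, the groups overlapped, and the low H3K27me3 value was again that of the shallow old replicate 2. Without that library the log2 change of the H3K27me3 region was -0.017, without old replicate 3 it was -0.71, and by edgeR it was -0.22. Over the whole window the log2 change of H3K27me3 was -0.034, and 0.055 without that library. The other 3 H3K27ac regions of Grem1 had log2 changes of -0.74 to 0.40 and the other 4 H3K27me3 regions of -0.15 to 0.54, all with overlapping groups. The H3K27ac region at -0.74 (SE 0.52, adjusted p = 0.696, limma) lay 39.4 kb upstream and ran from -1.33 to -0.26 when 1 library was left out.

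Chrd encodes chordin, which binds Bmp2, Bmp4 and Bmp7. Its TSS lay at the edge of a 19 kb H3K27ac region that also held the TSSs of Clcn2, a chloride channel gene, and Polr2h, a subunit gene of RNA polymerase, so the acetylation cannot be assigned to Chrd alone. That region had a log2 change of -0.10 (SE 0.14) between overlapping groups. The long H3K27me3 domain of 57.5 kb downstream of the TSS was at 0.07 (SE 0.09). A 27 kb H3K27ac region 34.6 kb upstream of the TSS was at 0.09 (SE 0.11). It held the TSS of the neighbour Fam131a and lay 56.9% inside the window. In young cells its mean scaled signal was 74.1 of the 119 summed over the window, so that sum cannot be assigned to Chrd alone either. The short H3K27me3 region over the TSS (2.5 kb, shared with Thpo) had a scaled signal of 5.53, 2.82 and 2.09 in young and 3.49, 7.96 and 6.66 in old libraries, which overlapped (log2 change 0.74, SE 0.34, adjusted p = 0.33, limma). A 1.5 kb H3K27ac region 26.6 kb upstream held 8 to 11 reads in the young and 0 to 6 in the old libraries (log2 change -1.43, adjusted p = 0.397, limma). Its groups did not overlap, but 0 reads in old replicate 2 allow a scaled signal of up to about that of 3 reads, so the size of the change is uncertain.

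Fst, which encodes follistatin, an antagonist of activins and some BMP ligands, was the single member with H3K27ac and no H3K27me3 over the TSS. The H3K27ac region of 17.5 kb covered the whole gene, with a scaled signal of 48.3, 46.7 and 39.5 in young and 43.4, 36.2 and 47.9 in old libraries. The groups overlapped (log2 change -0.08, SE 0.14, adjusted p = 0.903, limma). An H3K27me3 region of 9 kb stood 14.6 kb upstream, with a log2 change of 0.27 (SE 0.19) and overlapping groups. The 2 H3K27ac regions in the flanks, 51.5 kb downstream and 28.1 kb upstream of the TSS, were at -0.16 (SE 0.25) and 0.16 (SE 0.24), also with overlap.

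Per gene window, 0 of the 7 members with H3K27ac were called by limma, with 0 at an unadjusted p under 0.05 and 0 called by edgeR or DESeq2. Of all H3K27ac gene windows, limma called 0.68%, and 12.1% had an unadjusted p under 0.05. None of the 7 was without overlap between ages, against 16.6% of all windows. Their log2 changes lay between -0.16 for Bmp5 and 0.12 for Grem1, and the SE was 0.09 to 0.25. For H3K27me3, 1 of 10 windows was called (Bmp7, adjusted p = 0.0236, limma), against 0.437% of all windows. At an unadjusted p under 0.05 there were 5 of 10, against 14.4% of all windows. By edgeR and by DESeq2, 1 of 10 was called, against 116 and 113 of all 17399 windows. The groups did not overlap in 5 of 10, with Bmp6 and Chrd above and Bmp7, Nog and Bmper below in old cells, against 19.5% of all windows. The log2 change of the Chrd window was 0.10, and -0.026 on the values as deposited.

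Compared per length, as scaled RPKM (reads per kb of region, normalised to the mapped reads of the library), H3K27me3 in young cells was densest over Bmp7, at 1.50 ± 0.03 (SD, n = 3). Nog followed at 1.09 ± 0.06, Chrd at 1.03 ± 0.02, Bmp2 at 1.01 ± 0.07 and Bmp4 at 1.00 ± 0.18, and these 4 did not differ beyond their spread from the neighbour in the order. Bmp6 (0.82 ± 0.02), Fst (0.79 ± 0.25), Bmper (0.76 ± 0.08), Bmp5 (0.72 ± 0.05) and Grem1 (0.69 ± 0.02) were lower. This order holds for means over all regions of a window. For the region over the TSS alone, Bmp6 was at 1.21 ± 0.08, Nog at 1.16 ± 0.07, Bmp4 at 1.14 ± 0.21 and Bmp2 at 1.01 ± 0.07. Bmper (0.98 ± 0.11), Bmp5 (0.91 ± 0.07), Grem1 (0.86 ± 0.06) and Chrd (0.70 ± 0.36) were lower there. The 57.5 kb domain of Chrd, past the end of the gene, was at 1.05 ± 0.03. In old cells the H3K27me3 density of the Bmp7 window was 1.15 ± 0.07, next to Chrd at 1.10 ± 0.04 and Bmp4 at 1.09 ± 0.14, so it no longer stood apart from its neighbours. The domain over the Bmp6 TSS was then at 1.29 ± 0.12. H3K27ac per length spanned a narrower range, from 0.83 ± 0.16 (Grem1) to 1.25 ± 0.08 (Chrd) in young cells, and neighbours in that order lay within their spread. The H3K27ac values of Chrd and Bmp6 came mostly from regions that held the TSSs of other genes.

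**Figure D4:**
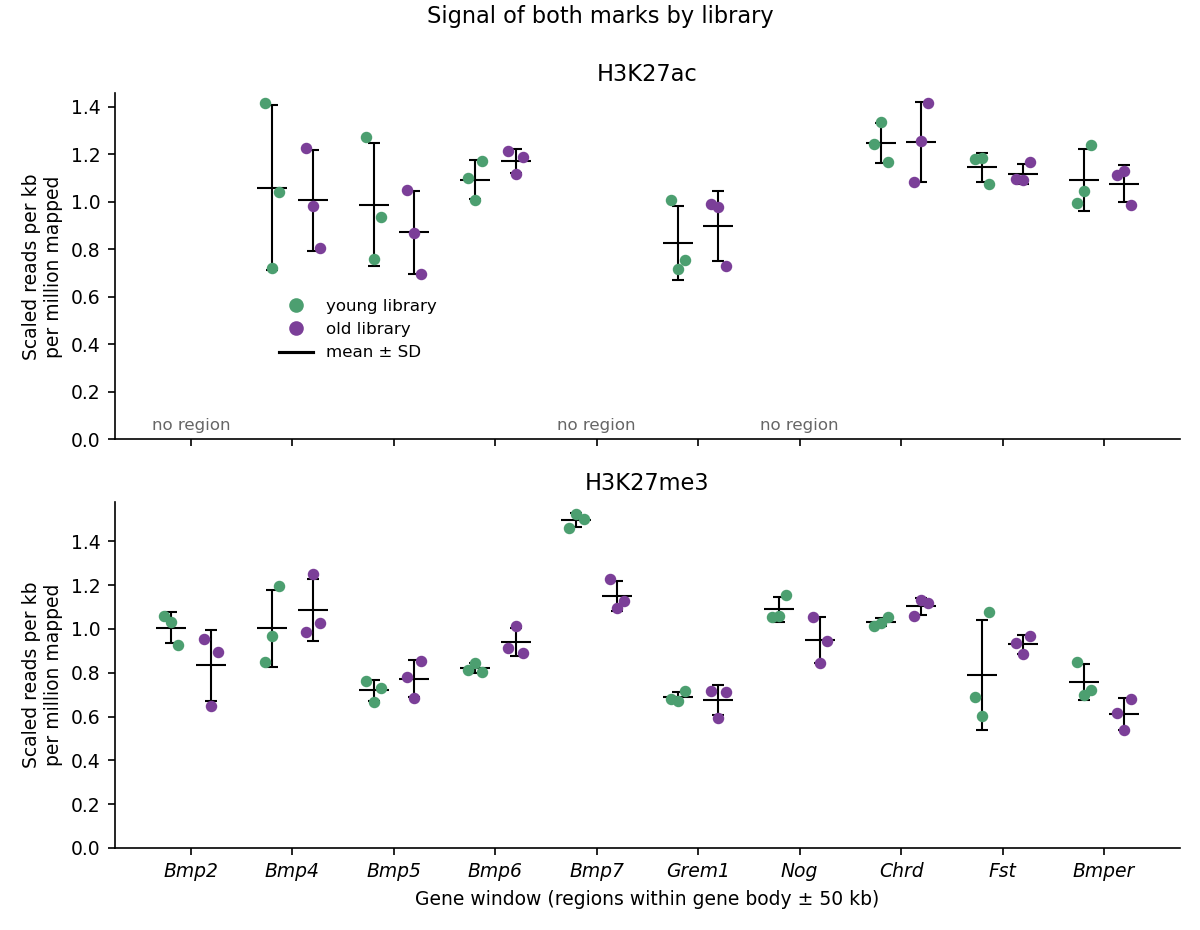
Scaled RPKM (reads per kb of region, normalised to mapped reads), summed over the regions of each gene window, for H3K27ac (top) and H3K27me3 (bottom). Points are libraries (green young, purple old) and black lines the mean ± SD of 3 libraries. The H3K27me3 density of Bmp7 is 1.50 in young and 1.15 in old cells, and Bmp2, Bmp7 and Nog have no H3K27ac region.

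The balance of the marks was taken as log2 of H3K27ac over H3K27me3, both per kb, for samples of the same number. The protocol in the labels divides the cells of a sample between both antibodies, but the labels do not state that a number names the same cells in both tables. The tables were normalised apart, so 0 has no meaning as equal amounts and no test was made. For Bmp6 and Chrd the H3K27ac side came mostly from regions that held the TSSs of other genes. A balance existed for the 7 members with regions of both marks. In Bmper it was 0.22, 0.58 and 0.78 in young and 0.85, 1.08 and 0.54 in old samples, a difference of 0.29 between the means, which was 0.12 without replicate 1, 0.19 without replicate 2 and 0.56 without replicate 3. In Fst it was 0.77, 0.97 and 0.00 in young and 0.23, 0.30 and 0.27 in old samples, a difference of -0.31, which was -0.20, -0.14 and -0.60 without replicates 1, 2 and 3 in turn. The difference was -0.27 to -0.09 in Bmp4, Bmp5, Bmp6 and Chrd. Leaving out 1 replicate number, it ran from -0.28 (without 2) to -0.04 (without 1) in Bmp4, from -0.48 (without 2) to -0.07 (without 3) in Bmp5, from -0.12 to -0.07 in Bmp6 and from -0.25 (without 3) to -0.02 (without 1) in Chrd. In Grem1 it was 0.16, and turned to -0.07 without replicate 2 and 0.29 without replicate 1. With 10 kb flanks it was -0.51 in Bmp4 and 0.36 in Grem1. In each of the 7 the old and young samples overlapped. For Bmp2, Bmp7 and Nog no balance could be formed. Of the 32 H3K27ac regions, 14 (43.8%) overlapped an H3K27me3 region of the members, as did 12 (27.3%) of the 44 H3K27me3 regions in reverse. These included 3 of 3 H3K27ac regions at Bmp4 and 0 of 3 at Fst. The share over all regions of either mark is not given here, so the counts do not show whether such overlap is unusual.

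**Figure D5:**
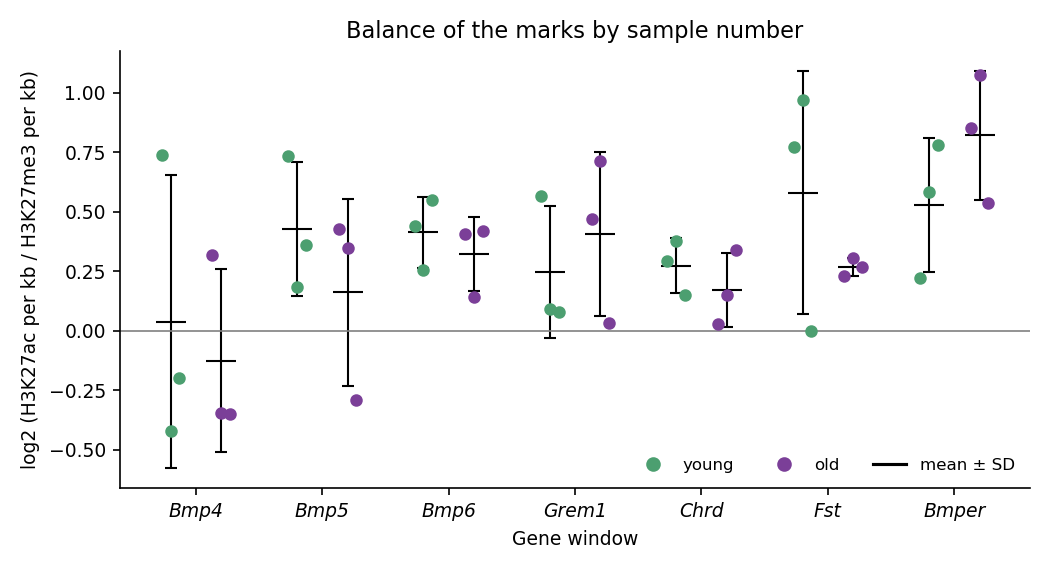
Balance of the marks, log2 of H3K27ac per kb over H3K27me3 per kb, in the 7 gene windows with both marks. Points are samples (green young, purple old) and black lines the mean ± SD of 3. The range of old samples overlaps that of young samples in each gene.

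In the remainder of the pathway, a list of 46 genes, the receptors (8 of 8), signal transducers (8 of 8) and targets (6 of 6) carried H3K27ac over the TSS, with H3K27me3 beside it at the receptor gene Acvr2b and the target gene Hey1. By contrast, 8 of 10 other ligand genes, such as Gdf5 and Gdf6, had H3K27me3 alone. The 14 other extracellular regulators were divided into 6 with H3K27ac alone, among them Fstl1 and Twsg1, 7 with H3K27me3 alone, among them Sost and Chrdl1, and 1 with neither (Dand5). With age, limma called 0 of the 41 windows measured for H3K27ac (4 at an unadjusted p under 0.05) and 0 of 38 for H3K27me3 (also 4), and edgeR and DESeq2 called 0 in either mark. Over all gene windows, 12.1% for H3K27ac and 14.4% for H3K27me3 had an unadjusted p under 0.05 in limma. The lowest p for H3K27ac was that of Bmp1, which encodes a procollagen proteinase and not a BMP ligand proper (log2 change 0.28, SE 0.08, adjusted p = 0.0938, limma). For H3K27me3 it was that of Gdf7, a ligand of tendon and spinal cord (log2 change -0.38, SE 0.10, adjusted p = 0.104, limma), which was called on the values as deposited. The next were Smad9 (0.18) and Nbl1 (0.19) for H3K27ac, and Gdf2 and Gdf6 (both -0.20) for H3K27me3. The median log2 change over the list was 0.03 for H3K27ac and 0.00 for H3K27me3, against 0.03 and -0.04 over all gene windows.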

How the data were processed

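CUT&RUN of H3K27ac and H3K27me3 gave 12 libraries, 3 for each age and mark, grouped by the sample labels. Per the labels, reads were handled with Bowtie2 and Picard on mm10 (GRCm38), versions not given. The authors deposited 1 table of signal values per mark, over regions in steps of 500 bp. Although named RPKM, these values were divided by a constant 0.5 kb, whatever the size of a region. In each column 100% of values were whole multiples of 1 read, so reads were recovered. A design written for RPKM was kept, because a constant divisor leaves ratios between libraries unaltered. The divisor does set the weight of the 0.5 added before taking logs, since 1 H3K27ac read was worth 0.361 to 0.727. Of sample columns, 0 were unused.

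Genes came from GENCODE vM21. Columns were scaled by the median of ratios, and log2(value + 0.5) was fitted with limma 3.58.1 (two-sided, variance trend, robust, Benjamini-Hochberg over the whole table) in R 4.3.3. Windows summed all regions that touched the gene body and its 50 kb flanks, counted whole. Fold changes on this scale understate changes at low signal. Every member was named, with its region nearest the TSS, each called region and the 5 of lowest p in each mark. Of the pathway list, the 3 genes of lowest p in each mark were named. Members and lists were chosen with earlier results of these data known. Alternatives were edgeR 4.0.16, DESeq2 1.42.0, other scalings, pseudocounts, windows, a minimum of 10 reads, a replicate block and leaving out each library. The limma, edgeR and DESeq2 fits over regions were checked on simulated reads. Intervals and floors (3 reads) cover counting error only. The supplied paper does not report these libraries and was used for style.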

Additional observations from a re-analysis of the deposited data

How the results depend on the processing

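Over 817 alternatives to 62 results, 755 kept direction and side of the threshold or stayed within the spread. On the values as deposited, limma called 4 H3K27me3 member regions (Bmp7, Nog and 2 of Bmper) and 3 windows (Bmp2, Bmp7, Bmper). That setting called 774 of all 28047 H3K27me3 regions, 753 of them lower in old cells, and 617 of 17399 windows. The median log2 changes of the members were -0.164 (H3K27ac) and -0.184 (H3K27me3), against -0.117 and -0.126 over all regions. By edgeR, 1 H3K27ac region (Bmp5) and 2 H3K27me3 regions (Bmp7, Bmper) were called, those of Bmp5 and Bmper being listed for young cells alone. Over all regions, edgeR called 96 of 31617 for H3K27ac and 394 of 28047 for H3K27me3. Without trend and robust moderation, 0 regions and 0 windows were called for H3K27me3 (Bmp7 at -0.382). Regions overlapping gene bodies alone had a median of -0.159 for H3K27me3. Leaving out 1 library gave 0 to 1 H3K27me3 regions and 0 to 2 windows called, medians of -0.0777 to 0.0447 (H3K27ac) and -0.0845 to -0.0246 (H3K27me3), and log2 changes of -0.429 to -0.347 for Bmp7, whose window also lost its call without old replicate 2 (adjusted p = 0.0689, limma). The balance difference at Chrd ran from -0.246 to -0.0185. Depth limits the short H3K27ac regions, and 3 libraries a group limit all tests. The labels gave no batch, so values within batches could not be formed.

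Deviations of same-numbered young and old samples correlated at -0.054 to 0.066 (H3K27ac) and -0.078 to 0.043 (H3K27me3). Those of differently numbered samples ran from -0.096 to 0.075 and from -0.128 to 0.133. With groups of 3 these values cannot settle whether the numbers pair the samples. They do not compare the 2 marks, as the balance does. With a replicate block the Bmp7 domain had an adjusted p of 0.0446 and its window 0.0596 (limma) at the same log2 change of -0.382, so 0 windows were called.

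Log2 changes turned sign in 21 cases, at adjusted p of 0.731 or more. On the values as deposited these were the H3K27ac window of Bmp6 (-0.0163), the H3K27me3 windows of Bmp4 (-0.000806), Bmp5 (-0.0264) and Chrd (-0.0256) and the H3K27me3 TSS regions of Bmp4 (-0.0499) and Bmp6 (-0.0335). By count tests they were the H3K27ac window of Chrd (0.00263 by edgeR, 0.00335 by DESeq2) and the H3K27me3 window of Grem1 (0.000817 by edgeR). With 10 kb flanks, the H3K27ac window of Bmper was at 0.0608. Leaving out 1 library at a time, H3K27ac windows ran from -0.282 to 0.184 for Bmp4, -0.335 to 0.0281 for Bmp5, -0.095 to 0.0976 for Chrd and -0.0835 to 0.0754 for Bmper, the H3K27ac TSS region of Fst from -0.17 to 0.0298, the H3K27me3 window of Grem1 from -0.0784 to 0.0551 and the H3K27me3 TSS region of Bmp4 from -0.0601 to 0.218. The cause was not tested. DESeq2 gave no adjusted p in 14 cases, and short regions with a mean under 10 reads gave no value under the read minimum.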
